A study of Mus musculus with 12 samples.

Results

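The genes described are the mouse translation initiation factors, the Eif1 to Eif6 genes that encode the eIF proteins. They were taken from a per-read table of direct RNA sequencing as the protein-coding genes named Eif1 to Eif6, without pseudogenes and without the 4E-binding proteins (Eif4ebp) and the eIF2 kinases (Eif2ak). The rule found 47 genes of 14011, with 57880 of 4212664 kept reads (1.37%), and 95.6% of their reads lay on transcripts annotated as protein coding. All 47 passed the filter of at least 30 reads over the 12 libraries, and 35 had enough reads for their poly(A) tails to be tested.

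P19 cells, a mouse embryonal carcinoma line, were harvested undifferentiated in serum medium (D0) and after 2, 4 or 6 days (D2, D4 and D6) in NDiff 227 medium with 500 nM retinoic acid, which turns them into neuron-like cells. Each day had 3 biological replicates of 1 parental line, so the 3 differentiated groups share the retinoic acid and the change of medium, and the D0 cells had neither. Native RNA passed through the nanopore, so that each read gave 1 molecule, its transcript and the length of its tail. The comparisons with D0 ask which transcripts, and which tails, change as the cells differentiate.

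The libraries held 441890 to 602155 kept reads on D0, 118587 to 237060 on D2, 249247 to 429365 on D4 and 268742 to 424121 on D6, so the D2 values carry the largest counting error. The 13 sequencing runs each held 1 day, and the day and the run cannot be told apart. Groups follow the sample labels: the names of the D0 runs also bear a D2 mark, and 2 of the 4 D6 runs have no day in their names. Of 10 neuronal markers, 10 were called higher at D6 than at D0 by limma-voom, with a summed level of 570 to 590 CPM at D0 and 3033 to 3292 at D6. CPM is the number of reads relative to the size of the library, scaled by the trimmed mean of M-values (TMM) and not divided by transcript length. Of 9 pluripotency markers, 7 had reads (Zfp42 and Dppa5a were at 0), 6 were tested and 6 were lower, from 2269 to 2518 down to 184 to 230 CPM. The 7 glial markers summed to 21.3 to 39.0 at D0 and 30.3 to 39.8 at D6, with S100b, Olig1 and Aqp4 at 0 in every library, and the 8 mesodermal and endodermal markers to 29.8 to 33.3 and 0 to 7.24, with Gata4, Sox17, T and Afp at 0. The part of these shifts in cell state in the results for initiation factors was not tested. In bulk RNA, fewer cells of a type and less RNA per cell cannot be told apart.

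Initiation brings a ribosome to the start codon of an mRNA. The factor eIF2, bound to GTP, carries the initiator tRNA to the small ribosomal subunit, where eIF1, eIF1A and the many-subunit eIF3 also bind, and eIF2B recharges eIF2 with GTP afterwards. At the other end of the process the cap-binding protein eIF4E, the scaffold eIF4G and the RNA helicase eIF4A, with its cofactors eIF4B and eIF4H, load the small subunit onto the capped mRNA. Poly(A)-binding protein on the tail touches eIF4G, which links the tail to the cap. Some mRNAs of the translation machinery begin with a terminal oligopyrimidine (TOP) motif, a C followed by a run of pyrimidines, and are controlled through the mTOR pathway and LARP1.

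At D6, many more initiation factor transcripts were lower than higher. By limma-voom at a Benjamini-Hochberg adjusted p of 0.05, 24 of the 47 were lower than at D0 (18.7% of the 9291 genes tested were called lower) and 3 were higher (19.1% of all genes), and 20 were not called. The count of lower members ranged from 17 to 24 with 1 library left out. Of the 47, 40 lay below 0, with a median log2 fold change of −0.40 against 0.00 over all genes tested. Of the 26 called members in the naming rule, which leaves out Eif2d, 14 kept their call under every alternative setting and with any 1 library left out, and Eif2b1, Eif3c, Eif4a2 and Eif4e2 were among those that did not. The libraries of D6 lay wholly below those of D0 for 28 members (24.0% of all genes) and wholly above for 4 (22.7%). Summed over all members, the level went from 16047 ± 542 to 11834 ± 414 CPM by D6 (mean ± SD of 3 libraries), a ratio of 0.737 (exact permutation p = 0.1, two-sided, the smallest that 3 libraries against 3 allow). Their share of the kept reads without any scaling went from 1.47% ± 0.025 to 1.28% ± 0.013. With each library scaled to its plain total, the median of all genes moved up to 0.25 on the log2 scale and that of the members to −0.15, so 14 members were called lower and 5 higher, and in all genes 2543 were called higher and 1177 lower. Relative to the median of all genes, 40 of 47 members lay below it and the members' median less that of all genes was −0.40 under either scaling.

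**Figure D1:**
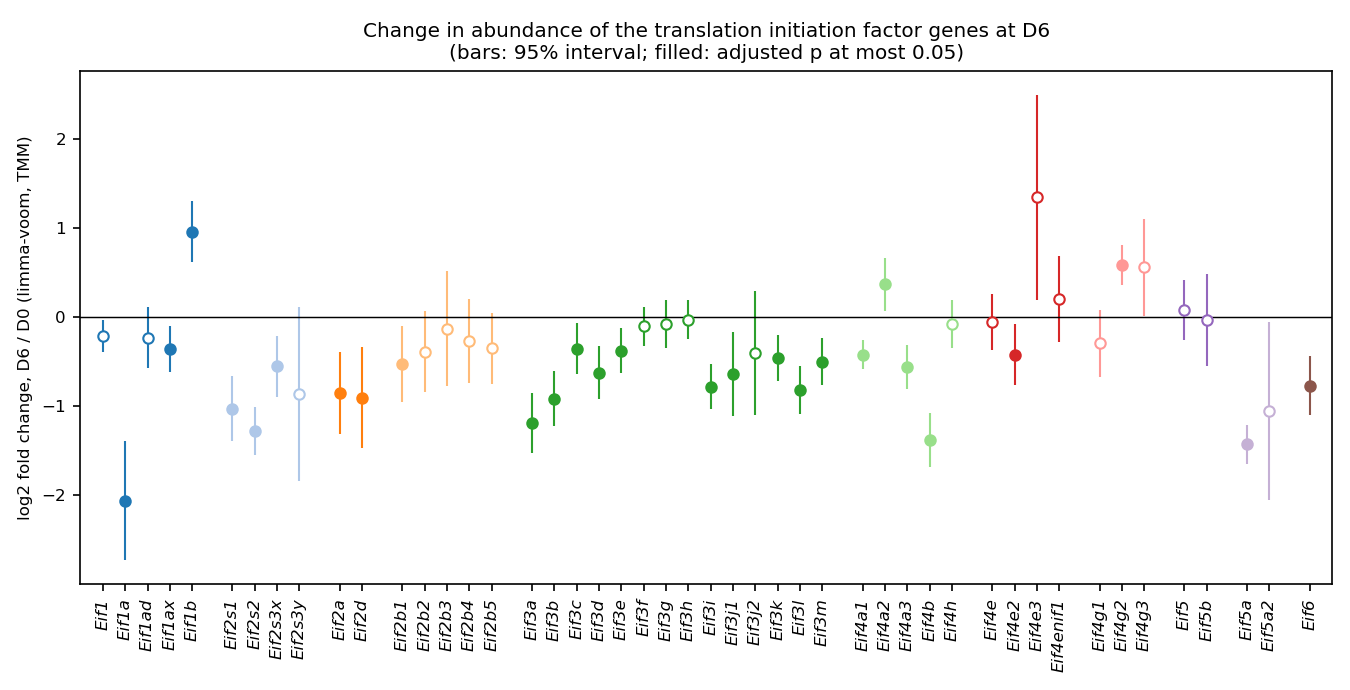
Log2 fold change at D6 against D0 for each of the 47 initiation factors (y axis), grouped and coloured by factor, with bars for the 95% interval and filled points for members called by limma-voom. The 3 members called higher are Eif1b, Eif4g2 and Eif4a2. All 14 eIF3 members lie below 0 with this TMM scaling, and with plain library totals those near 0, such as Eif3f and Eif3h, lie above it.

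The share of all genes called also grew with the day, and D2 was the shallowest day. At D2, 6 members were lower (6.17% of all genes) and 0 higher by limma-voom (4.74% of all genes). The 6 were Eif4b, Eif5a, Eif2s3x, Eif3a, Eif4a1 and Eif2s2, with log2 fold changes from −0.70 to −0.41. This count was 2 at a mapping quality of at least 10, 3 with median-of-ratios scaling, and 3 without D0 replicate 1, D2 replicate 3, D4 replicate 1, D4 replicate 2 or D6 replicate 3. At D4, 11 were lower (12.5% of all genes) and 2 higher (12.9%), the higher ones being Eif1b and Eif4e3. Between D2 and D4 limma-voom called only Eif3f, which was higher at D4 (log2 fold change 0.48, limma adjusted p = 0.0167, with 2.03% of all genes higher and 1.09% lower). Between D4 and D6, 9 members were lower (4.33% of all genes) and 1 higher (4.14%). These 9 were Eif1, Eif1a, Eif2s1, Eif2s2, Eif3f, Eif3i, Eif3l, Eif4a3 and Eif5a, and the higher one was Eif4g2.

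The Eif1 and Eif1a genes, whose proteins keep the scanning ribosome open until a start codon is met, changed by unequal amounts within their families. Eif1, the eIF1 gene with most of the reads, held 1411, 1514 and 1597 CPM in the 3 D0 libraries and 1443, 1141 and 1409 at D6, and the groups overlapped (log2 fold change −0.21 ± 0.09 SE, limma adjusted p = 0.0582). Its sign turned to 0.03 when libraries were scaled to their plain totals. Its paralog Eif1b (mm10 chr9:120492491-120495330, plus strand) held 90.2, 86.9 and 113 CPM at D0, 116, 116 and 142 at D2, 165, 156 and 163 at D4 and 199, 188 and 179 at D6. Each D6 library exceeded each D0 library, and Eif1b rose 1.95-fold (log2 fold change 0.96 ± 0.17, limma adjusted p = 5.68e-06). Of the Eif1 and Eif1b reads together, Eif1b thus took 6.01% ± 0.587 on D0, 8.51% on D2, 9.03% on D4 and 12.5% ± 1.47 on D6 (exact permutation p = 0.1 for D6). In the eIF1A pair both copies fell. The autosomal Eif1a fell 4.18-fold, from 90.2, 81.3 and 87.3 CPM to 14.5, 23.2 and 19.3 (log2 fold change −2.06 ± 0.34, limma adjusted p = 8.19e-07). The X-linked Eif1ax held 341, 394 and 434 CPM at D0 and 264, 304 and 339 at D6 and fell less (log2 fold change −0.36 ± 0.13, limma adjusted p = 0.024). The share of Eif1a in the pair was 18.3% ± 2.30 at D0 and 5.89% ± 1.05 at D6 (exact permutation p = 0.1). Eif1ad, a relative of Eif1a, was not called (log2 fold change −0.23, limma adjusted p = 0.316).

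The 3 subunits of eIF2, the carrier of the initiator tRNA, each had a gene called lower at D6 (18.7% of all genes were called lower). Their 4 genes summed to 984 ± 12.1 CPM before differentiation and to 721 ± 62.8 (D2), 620 ± 43.2 (D4) and 488 ± 38.2 (D6) after it (mean ± SD of 3 libraries), a ratio of 0.495 at D6 (exact permutation p = 0.1). Eif2s2, the beta subunit (mm10 chr2:154871410-154892935, minus strand), held 536, 544 and 539 CPM at D0 and 228, 219 and 217 at D6. Its 3 D0 libraries lay close together and all above the D6 ones, and it fell 2.43-fold (log2 fold change −1.28 ± 0.13, limma adjusted p = 3.28e-12). Only 36.7% of the Eif2s2 reads had a mapping quality of at least 10, and under the alternatives its value ranged from −1.29 to −0.77. Eif2s1, the alpha subunit that the eIF2 kinases phosphorylate, went from 202, 233 and 238 to 177, 80.1 and 110 CPM (log2 fold change −1.03 ± 0.18, limma adjusted p = 4.47e-06). The D6 libraries differed from each other: the log2 fold change of Eif2s1 was −1.27 without D6 replicate 1 and −0.69 without D6 replicate 2. Eif2s3x, the X-linked gamma subunit, fell from 234, 189 and 181 to 112, 160 and 127 (log2 fold change −0.55 ± 0.17, limma adjusted p = 0.00842). Its Y-linked copy Eif2s3y was not called (log2 fold change −0.86 ± 0.49, limma adjusted p = 0.163) and took 8.56% of the pair at D0 and 7.74% at D6 (exact permutation p = 0.9).

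The 5 subunits of eIF2B, the exchange factor for eIF2, all lay below 0 with TMM scaling, with a median of −0.35 against 0.00 over all genes, and with plain library totals the median of all genes moves up by 0.25. Of the 5 only Eif2b1, a regulatory subunit, was called, a share close to the 18.7% of all genes called lower (log2 fold change −0.53 ± 0.21, limma adjusted p = 0.0428), while the catalytic subunit Eif2b5 was at −0.35 (limma adjusted p = 0.165). The factors Eif2a and Eif2d, which can bring tRNA to the ribosome apart from eIF2, were both called lower (18.7% of all genes were). Eif2a went from 85.3, 107 and 106 to 54.3, 50.6 and 60.6 CPM (log2 fold change −0.85 ± 0.23, limma adjusted p = 0.00247). Of the Eif2a reads, 49.0% had a mapping quality of at least 10. Under the alternatives the value of Eif2a was −0.37 at its weakest, and its limma adjusted p reached 0.45. Eif2d went from 60.9, 66.6 and 63.9 to 25.3, 31.6 and 44.0 (log2 fold change −0.90 ± 0.29, limma adjusted p = 0.00893). It was read too rarely for the naming rule, is given because its group has only these members, and was not put through the alternatives.

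Of the 14 genes of eIF3, the scaffold that gathers the factors on the small subunit, 10 fell (18.7% of all genes were called lower) and 0 rose (19.1% higher) by limma-voom, with a median of −0.48 against 0.00 over all genes. All 14 lay below 0 with TMM scaling, and with plain library totals those near 0, such as Eif3f and Eif3h, lay above it. Of the 10, Eif3a, Eif3b, Eif3d and Eif3i kept their call under every alternative and with any 1 library left out. Their sum went from 5185 ± 195 CPM to 3787 ± 78.8 at D6, a ratio of 0.730 (exact permutation p = 0.1). Eif3a, the largest subunit (mm10 chr19:60761117-60790643, minus strand), had 429, 336 and 326 CPM at D0, 182, 306 and 225 at D2, 131, 187 and 177 at D4 and 123, 221 and 124 at D6. It fell 2.28-fold by D6 (log2 fold change −1.19 ± 0.17, limma adjusted p = 3.85e-08) and was already lower at D2. Eif3b, which with Eif3i and Eif3g forms the module that moves during scanning, went from 336, 294 and 330 to 141, 177 and 182 (log2 fold change −0.92 ± 0.15, limma adjusted p = 1.7e-06). Eif3i fell from 561, 616 and 532 to 402, 295 and 322 (log2 fold change −0.78 ± 0.13, limma adjusted p = 5.78e-07), while Eif3g was at −0.08 ± 0.14 (limma adjusted p = 0.695). The partner of Eif3b and Eif3i in this module was thus not called. Eif3l fell from 475, 436 and 451 to 297, 240 and 245 (log2 fold change −0.82 ± 0.14, limma adjusted p = 1.04e-06), and its binding partner Eif3k from 434, 442 and 419 to 340, 318 and 286 (log2 fold change −0.46 ± 0.13, limma adjusted p = 0.00297). Of the Eif3l reads, 53.1% had a mapping quality of at least 10. Under the alternatives the value of Eif3l was −0.39 at its weakest, and its limma adjusted p reached 0.23.

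Eif3d, a subunit that can bind the cap itself, fell from 302, 346 and 260 CPM to 170, 211 and 198 (log2 fold change −0.62 ± 0.15, limma adjusted p = 0.000598). Of the remaining called subunits, Eif3j1 fell by 0.64 on the log2 scale, Eif3m by 0.50, Eif3e by 0.38 and Eif3c by 0.35 (limma adjusted p from 0.0022 to 0.042). For Eif3j1 27.2% of the reads had a mapping quality of at least 10, and it has a near copy, Eif3j2, which was not called (log2 fold change −0.40, limma adjusted p = 0.388). Eif3f and Eif3h, which form the pair of MPN-domain subunits of the complex, were not called. Eif3f held 602, 606 and 613 CPM at D0 and 586, 538 and 584 at D6 (log2 fold change −0.10 ± 0.11, limma adjusted p = 0.507), after 790, 710 and 669 at D4. Eif3h held 578, 629 and 551 at D0 and 593, 559 and 578 at D6 (log2 fold change −0.03 ± 0.11, limma adjusted p = 0.874). With plain library totals both turned above 0, to 0.14 and 0.21.

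**Figure D2:**
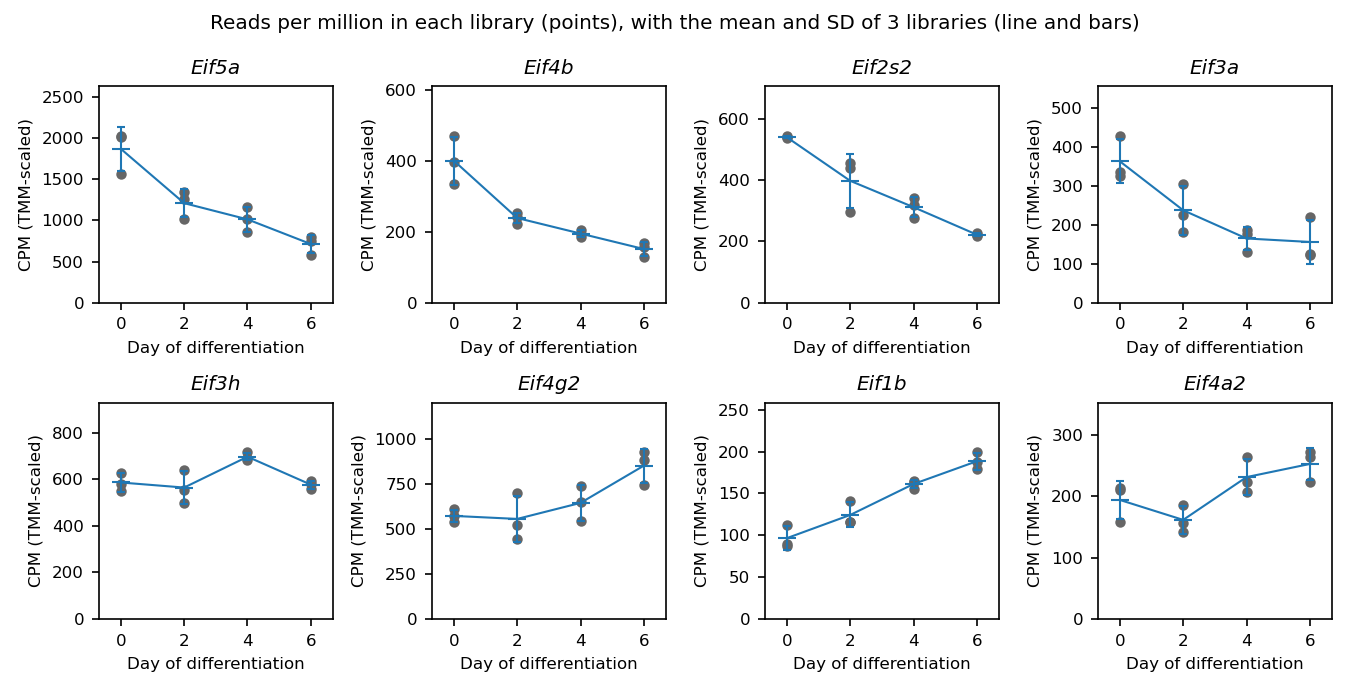
Level of 8 initiation factors (TMM-scaled CPM, y axis from 0) against the day of differentiation, with a point per library and a line with bars for the mean and SD of 3 libraries. The means of Eif5a, Eif4b, Eif2s2 and Eif3a step down from day to day, while Eif1b climbs from 86.9 to 113 CPM at D0 to 179 to 199 at D6.

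In the helicase group the sum fell from 3558 to 2676 CPM at D6, but its paralogs diverged. Eif4a1, the main eIF4A helicase gene (mm10 chr11:69666936-69672317, minus strand), held 1984, 2307 and 2012 CPM at D0, 1519, 1543 and 1416 at D2, 1728, 1650 and 1553 at D4 and 1794, 1476 and 1511 at D6. It was lower in every library after D0, by 1.34-fold at D6 (log2 fold change −0.42 ± 0.08, limma adjusted p = 2.2e-05). Eif4a2 (mm10 chr16:23107444-23113947, plus strand) held 158, 211 and 213 at D0 and 271, 264 and 223 at D6, and rose 1.29-fold (log2 fold change 0.37 ± 0.15, limma adjusted p = 0.042). The share of Eif4a2 among the reads of both was 8.44% ± 1.09 at D0 and 13.7% ± 1.25 at D6 (exact permutation p = 0.1). Eif4a3, a relative that sits in the exon junction complex, fell from 468, 564 and 468 to 358, 339 and 322 (log2 fold change −0.56 ± 0.12, limma adjusted p = 0.000182). Eif4b, which stimulates the helicase (mm10 chr15:102073773-102097173, plus strand), went from 470, 398 and 334 at D0 to 223, 252 and 241 at D2, 194, 204 and 187 at D4 and 156, 169 and 129 at D6. It fell 2.60-fold (log2 fold change −1.38 ± 0.15, limma adjusted p = 2.55e-11), whereas the related cofactor Eif4h was at −0.07 (limma adjusted p = 0.706).

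The cap-binding genes Eif4e, Eif4e2 and Eif4e3, with Eif4enif1, which carries eIF4E into the nucleus, summed to 421 CPM at D0 and 397 at D6, within the spread of the libraries (exact permutation p = 0.6). Eif4enif1 was not called (log2 fold change 0.21 ± 0.24, limma adjusted p = 0.533). Eif4e itself held 154, 207 and 185 at D0 and 199, 154 and 187 at D6, with overlapping groups (log2 fold change −0.05 ± 0.16, limma adjusted p = 0.838) and a value of 0.19 with plain totals. Eif4e2, a cap-binding relative linked to repression, fell (log2 fold change −0.42 ± 0.17, limma adjusted p = 0.0458). Eif4e3 was read only 8 times over the D0 libraries and 19 times over those of D6. It was called higher at D4 (log2 fold change 1.66, limma adjusted p = 0.0237) and not at D6 (1.35 ± 0.58, limma adjusted p = 0.0573).

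Among the eIF4G scaffolds the sum rose from 743 ± 46.1 to 1014 ± 121 CPM at D6 (exact permutation p = 0.1), and Eif4g2 carried most of it. Eif4g2 (mm10 chr7:111067750-111083030, minus strand) encodes a scaffold that lacks the binding site for eIF4E and serves cap-independent initiation. Its level was 609, 540 and 571 at D0, 446, 699 and 524 at D2, 545, 650 and 741 at D4 and 745, 926 and 886 at D6. The D6 libraries all lay above the D0 ones, and Eif4g2 rose 1.5-fold (log2 fold change 0.59 ± 0.11, limma adjusted p = 2.67e-05). Of the Eif4g2 reads, 44.8% had a mapping quality of at least 10, and under the alternatives its value ranged from 0.57 to 1.15. Eif4g1, the main scaffold for capped mRNAs, was at −0.29 ± 0.19 (limma adjusted p = 0.226) and Eif4g3 at 0.56 ± 0.27 (limma adjusted p = 0.098). Eif4g2 took 77.1% ± 0.280 of the reads of the 3 genes at D0 and 84.2% ± 0.874 at D6 (exact permutation p = 0.1).

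Eif5a, first named as an initiation factor and now known for helping ribosomes elongate past difficult peptides, had the lowest adjusted p of all members. It lies at mm10 chr11:69916720-69921386 on the minus strand, and held 1567, 2028 and 2018 CPM at D0, 1345, 1022 and 1264 at D2, 1162, 1019 and 858 at D4 and 803, 584 and 751 at D6. No library of a later day reached the lowest D0 library, and Eif5a fell 2.69-fold by D6 (log2 fold change −1.43 ± 0.11, limma adjusted p = 1.31e-17). Its paralog Eif5a2 had few reads and was not called (log2 fold change −1.06 ± 0.50, limma adjusted p = 0.0895). Eif6, which keeps the large ribosomal subunit from joining too early, fell from 205, 253 and 279 to 148, 160 and 121 (log2 fold change −0.77 ± 0.17, limma adjusted p = 0.000149). Eif5 and Eif5b, which trigger GTP hydrolysis on eIF2 and the joining of the large subunit, were at 0.09 and −0.03 (limma adjusted p = 0.73 and 0.944).

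The binding proteins and regulators of these factors, a fixed list of 25 genes of which 21 were tested, had 6 members that rose (19.1% of all genes were called higher) and 6 that fell at D6 (18.7% lower). Eif4ebp1, the 4E-binding protein that keeps eIF4E from eIF4G until mTOR phosphorylates it, went from 507, 566 and 541 CPM to 72.4, 44.3 and 38.5 (log2 fold change −3.45 ± 0.22, limma adjusted p = 4.07e-21). Pabpc1, the main cytoplasmic poly(A)-binding protein, went from a mean of 1103 to 517 (log2 fold change −1.09), and Pabpc4 fell by 1.12 on the log2 scale. The recycling factors Abce1 and Denr and the phosphatase subunit Ppp1r15b, which acts on phosphorylated eIF2, also fell. Pdcd4, an inhibitor that binds the eIF4A helicase, rose from 21.9, 22.2 and 14.9 to 90.4, 78.0 and 57.8 (log2 fold change 1.87 ± 0.32, limma adjusted p = 2.65e-06). The others that rose were Paip1 (1.20) and Paip2 (0.49), partners of the poly(A)-binding protein, the eIF4E kinase Mknk2 (1.18), and the eIF5 mimics Bzw1 (1.15) and Bzw2 (0.38).

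Of the members' transcripts, 87 could be tested, of which 32 were lower at D6 (14.6% of the 12339 tested) and 3 higher (15.0%). The 3 belonged to Eif1b, Eif4a2 and Eif4g2. Of the transcripts of Eif4a2, only 1 was called higher. The protein-coding ENSMUST00000023599.12 took 36.9, 30.7 and 32.0% of the gene's reads on D0, 36.8, 46.7 and 48.1% on D2, 60.4, 54.7 and 58.4% on D4 and 57.3, 54.4 and 61.7% on D6. Its share was higher in each D6 library than in any D0 library (33.2% ± 3.28 and 57.8% ± 3.69, exact permutation p = 0.1), and its level rose by 1.20 ± 0.21 on the log2 scale (limma adjusted p = 6.73e-06). The 3 transcripts of Eif4a2 annotated as targets of nonsense-mediated decay, a pathway that degrades mRNAs with an early stop codon, went from 37.3% ± 4.49 to 19.2% ± 2.86 of its reads. Of the decay-annotated transcripts, ENSMUST00000147117.7 and ENSMUST00000131871.7 had 0% of their reads at a mapping quality of at least 10, so their reads could not be assigned uniquely, and the same held for the protein-coding ENSMUST00000168891.7. The main transcript had 83.3% of its reads at that quality. The third decay-annotated transcript, ENSMUST00000123413.7, had 96.2% and went from 15.3 to 6.71% of the gene's reads, though its level was not called (log2 fold change −0.75 ± 0.39, limma adjusted p = 0.142). The median tail, as the mean over libraries, went from 139 (D0) to 132 nt (D6) on the main transcript, with 185 and 191 nt on the decay-annotated ones, and 190 and 239 nt on the other protein-coding ones, with no test made between the classes. In D0 replicate 2 it was 165 nt on the main transcript and 165 nt on the decay-annotated ones. The 8 tested transcripts of Eif5a all fell, but apart from ENSMUST00000108613.9 (88.5%) only 0 to 15.9% of their reads had a mapping quality of at least 10, so the reads cannot be divided among them with certainty.

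**Figure D3:**
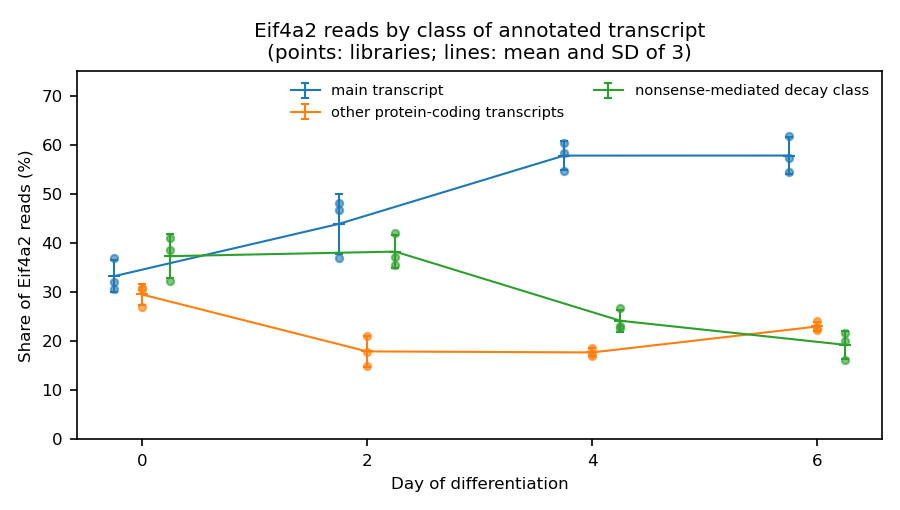
Share of Eif4a2 reads (percent, y axis) on the main protein-coding transcript, on its other protein-coding transcripts and on those annotated for nonsense-mediated decay, against the day of differentiation, with a point per library and lines with bars for the mean and SD of 3. The main transcript goes from 30.7 to 36.9% at D0 to 54.4 to 61.7% at D6.

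Tails of the initiation factors changed in both directions. The median tail of a member was taken in each library and compared with limma. At D6, 5 of the 35 tested members had shorter median tails (7.76% of 1739 genes) and 3 had longer ones (4.26%), with a median change of −1.02 nt over the members and 1.54 nt over all genes. At D4, 5 were shorter (7.48% of all genes) and 1 longer (0.805%), and at D2 only Eif1 was shorter (5.06%). The calls of Eif3e, Eif3k and Eif4g2 held under every alternative and with any 1 library left out, and those of the other 5 did not. Over all member reads pooled, the median tail went from 102 ± 3.17 to 104 ± 1.15 nt by D6, which is within the spread of the libraries (exact permutation p = 0.7). The mRNAs of 81 cytosolic ribosomal proteins went from 97.1 ± 3.25 to 80.1 ± 0.147 nt, so the gap between members and ribosomal protein mRNAs widened from 5.12 to 24.0 nt (exact permutation p = 0.1). With each gene counted once, the widening was 16.0 nt. Set against all remaining genes, the members' pooled tails changed by −1.74 nt (exact permutation p = 0.4).

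**Figure D4:**
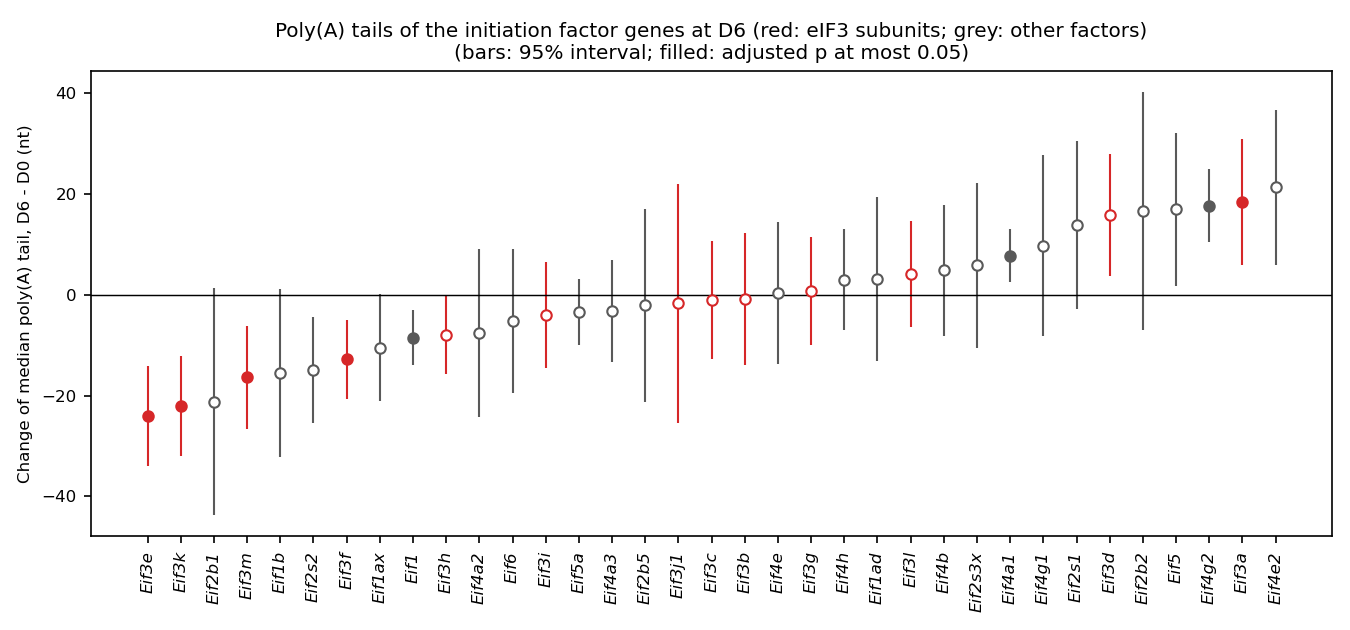
Change of the median poly(A) tail at D6 against D0 (nt, y axis) for the 35 initiation factors with at least 10 reads in each library, with bars for the 95% interval, filled points for members called by limma, and eIF3 subunits in red. Eif3e, Eif3k, Eif3m, Eif3f and Eif1 shortened, and Eif4g2, Eif3a and Eif4a1 lengthened.

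The eIF3 subunits made up 13 of the 35 members tested for tails and 4 of the 5 whose tails shortened at D6 (7.76% of all genes), a grouping noticed after the values had been seen. Over the 13 the median change was −1.69 nt, with 9 below 0 and 4 above. Eif3e had median tails of 95.6, 101 and 104 nt at D0, 82.1, 91.8 and 93.2 at D2, 79.1, 76.6 and 75.7 at D4 and 86.4, 77.1 and 69.6 at D6. The later days lay below all D0 libraries, and the change at D6 was −24.0 ± 4.94 nt (limma adjusted p = 0.000156). Eif3k had 87.3, 98.3 and 95.7 nt at D0 and 77.5, 71.3 and 68.4 at D6 (−22.1 ± 4.95 nt, limma adjusted p = 0.000565). Eif3m went from 102, 103 and 105 to 83.6, 85.5 and 93.0 nt (−16.4 ± 5.08, limma adjusted p = 0.0211) and Eif3f from 91.0, 89.9 and 99.4 to 79.4, 77.8 and 84.9 (−12.8 ± 3.92, limma adjusted p = 0.0194). Eif3f thus lost tail length at D6 without a called change in level against D0. Eif3a went the other way, from 106, 105 and 108 to 110, 124 and 136 nt (18.4 ± 6.23, limma adjusted p = 0.0406), while its level fell. Pooled over the eIF3 reads the median tail was 94.7 ± 3.04 nt at D0 and 87.3 ± 1.78 at D6, and over the remaining members it was 106 and 111 nt, a split made after the values had been seen and left without a test.

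The share of tails from 30 to 90 nt, a range in which few poly(A)-binding proteins fit, was compared in the same way. At D6 it was higher for 3 members (6.90% of all genes) and lower for 4 (2.30%). Of these 7 calls only that of Eif3k held under every alternative and with any 1 library left out, and the count was 2 without D6 replicate 2 and 2 with all libraries weighted the same. It rose for Eif3k from 48.9, 40.2 and 43.1% of reads to 60.6, 57.6 and 64.4% (16.8 ± 3.31 points, limma adjusted p = 1.79e-05), for Eif3e by 10.4 points (limma adjusted p = 0.0292) and for Eif3f by 8.91 points (limma adjusted p = 0.0142). In Eif3e the D6 library of replicate 1, at 40.8%, lay within the D0 range of 38.5 to 43.8%. The share fell for Eif4g2, from 33.2, 38.4 and 34.0% to 27.7, 22.1 and 27.3% (limma adjusted p = 0.000974), and for Eif3a, Eif3d and Eif4e2 (limma adjusted p from 0.0358 to 0.0495). At D4 it was higher for 5 members, Eif1, Eif3e, Eif3f, Eif3k and Eif5a (7.42% of all genes), and lower for Eif5 (0.748%), and at D2 it was higher for Eif1 (5.69%). Tails under 30 nt were more frequent for 1 member at D6 (4.21% of 1734 genes). This was Eif3e, at 1.23, 2.27 and 0% of reads at D0 and 11.8, 4.73 and 6.61% at D6 (limma adjusted p = 0.0351), a call that rests on few reads, 76 to 148 per D6 library, and that was lost when D0 replicate 1, 2 or 3, D2 replicate 1 or 3 or D6 replicate 1 or 3 was left out. At D4 limma called 0 of the 35 members in this class (2.54% of all genes higher and 0.0577% lower), and without adjustment for multiple tests 6 were higher and 1 lower at 0.05.

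Outside eIF3, Eif4g2 had the clearest lengthening, from 111, 108 and 110 nt at D0 to 124, 113 and 123 at D2, 127, 120 and 124 at D4 and 132, 131 and 119 at D6. Each later library lay above the D0 ones, and the change at D6 was 17.7 ± 3.65 nt (limma adjusted p = 0.000168), in a gene whose level also rose. Eif4a1 lengthened by 7.70 ± 2.63 nt (limma adjusted p = 0.0424), from 93.0, 101 and 101 to 109, 106 and 105 nt. Eif1 had among the longest tails of the members at D0, 127, 130 and 128 nt, and shortened to 108, 115 and 113 at D2, 118, 114 and 114 at D4 and 117, 120 and 122 at D6. Its change was greatest at D2 (−15.8 nt, limma adjusted p = 0.00103) and smaller at D6 (−8.54 ± 2.74 nt, limma adjusted p = 0.0271). At D0 the members' medians ran from 82.9 nt for Eif3l to 165 nt for Eif4a2. Across the 35 members the tail change and the log2 fold change at D6 had a Spearman correlation of −0.06, a description over genes that share libraries.

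Among the initiation factors, 5 are usually counted as TOP mRNAs, Eif3a, Eif3e, Eif3f, Eif3h and Eif4b, a list written from general knowledge and not checked against the list of TOP mRNAs that the study drew on. Of the 5, Eif3a, Eif3e and Eif4b fell in level at D6 (18.7% of all genes lower). In tail length Eif3e and Eif3f shortened (7.76% of all genes) and Eif3a lengthened (4.26%). Eif3h was at −8.01 ± 3.89 nt (limma adjusted p = 0.200) and Eif4b at 4.86 ± 6.50 nt (limma adjusted p = 0.724). Reads of the 5 pooled had a median of 98.1 nt at D0 and 87.7 at D6, so their change less that of the remaining members was −14.3 nt (exact permutation p = 0.1), and −4.74 nt with each gene counted once (exact permutation p = 0.2). The RefSeq starts (GRCm38.p6) of Eif3a, Eif3f and Eif4b, and of Eif3k, Eif3m and Eif2s3x, are shown so that their first bases can be compared, and no start sequence of Eif3e or Eif3h was used here. Each line has 10 bases before and 20 from the annotated start, in capitals the run of pyrimidines that begins at the start base if it is a C.
Eif3f (chr7:108934405-108934434, plus): tctaggctctCTCTCTTTCTCggcaagatg
Eif2s3x (chrX:94212632-94212661, minus): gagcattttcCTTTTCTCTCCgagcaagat
Eif4b (chr15:102073763-102073792, plus): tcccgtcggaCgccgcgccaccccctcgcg
Eif3a (chr19:60790674-60790703, minus): ctcgggcggcggcgctgccgccgcgaggga
Eif3k (chr7:28981869-28981898, minus): aaccggcgctggtgctgaaagcgcctttcc
Eif3m (chr2:105017008-105017037, minus): cggtcggcgtgtttctggatcggagcgtct

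A C with at least 4 more pyrimidines began 823 of the 32851 starts in the table (2.51%), and 2 of the 50 starts of the 38 members with an entry, those of Eif3f and Eif2s3x. Eif3f, with such a run of 11 pyrimidines, was not called in level and lost tail length. Eif2s3x, with a run of the same length, fell in level and was not called in tail length. Eif3k and Eif3m, whose RefSeq starts hold no such run and which are not among these 5, also had shorter tails at D6. The GENCODE transcripts with most reads of Eif3k, Eif3m, Eif3a and Eif2s3x begin outside the bases shown, and their first bases were not examined. The part of the start sequence in these changes was not tested. An annotated start need not be the start used in these cells, and direct RNA reads often stop short of it.

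The place where reads ended was examined for 2 members with a second 3′ end, a comparison made after the data had been seen and tested over 280 transcripts. For Eif4a1 (ENSMUST00000163666.2), reads that ended over 100 nt before the annotated end gathered about 359 nt upstream. They made up 46.9, 48.3 and 51.9% of its reads on D0, 43.8, 50 and 47.5% on D2, 36.3, 45.2 and 34.6% on D4 and 31.5, 29.9 and 30.6% on D6. All D6 libraries lay below all others, and the share fell by 18.5 ± 2.13 points against D0 (limma adjusted p = 6.39e-07, with 15.4% of transcripts lower and 4.29% higher). For Eif1 (ENSMUST00000049385.13) the reads that ended upstream gathered about 562 nt before the annotated end, and their share rose and then returned. It was 68.2, 64.0 and 68.1% at D0, 79.6, 82.9 and 84.0% at D2, 86.1, 75.1 and 76.2% at D4 and 71.1, 67.8 and 63.9% at D6. The rise was 16.0 ± 2.77 points at D2 (limma adjusted p = 0.00099, 2.14% of transcripts higher), and at D6 the difference was 0.78 points (limma adjusted p = 0.823). Tails on the upstream end of Eif1 had medians of 133 ± 1.99 nt at D0, 113 ± 4.45 at D2 and 122 ± 4.02 at D6 (exact permutation p = 0.1 for D2 and for D6). On the annotated end they were 116 ± 5.98 nt at D0, 106 ± 4.67 at D2 (exact permutation p = 0.1) and 116 ± 2.25 at D6. The medians were thus lower at D2 on both ends and lower at D6 on the upstream end only. The part of the choice of end in the tail change was not tested.

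The last bases before each of these ends are shown because each holds a poly(A) signal. They are 30 bases of the GENCODE transcript on GRCm38 up to the end, with the signal AATAAA in capitals.
Eif4a1 upstream end (chr11:69667295-69667324, minus): atgAATAAAtgtcactttttgaggcaaaaa
Eif4a1 annotated end (chr11:69666937-69666966, minus): aattctgAATAAAattacttggaaactgcc
Eif1 upstream end (chr11:100321505-100321534, plus): ctccttcatgcAATAAActgaaaagagcca
Eif1 annotated end (chr11:100322066-100322095, plus): ccttatttaAATAAAgcttgttttcagaaa

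AATAAA or ATTAAA, searched on the transcript strand, occurs in the last 30 bases of 71.2% of 10903 protein-coding transcripts. The upstream end of Eif4a1 closes on 5 A in the genome, and the part of such a run in where its reads were placed was not tested.

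**Figure D5:**
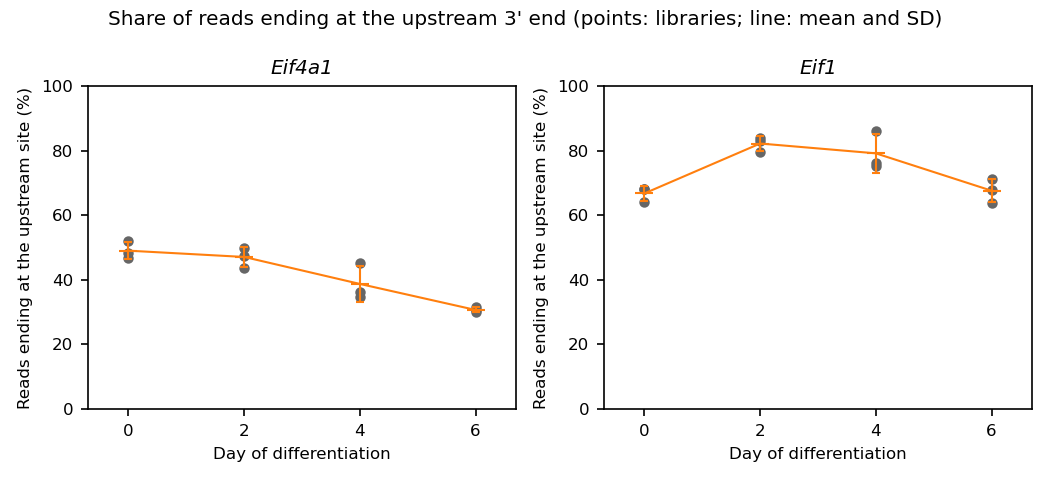
Share of reads (percent, y axis) of Eif4a1 and Eif1 that end over 100 nt before the annotated 3′ end, against the day of differentiation, with a point per library and a line with bars for the mean and SD of 3. Eif4a1 goes from 46.9 to 51.9% at D0 down to 29.9 to 31.5% at D6, and Eif1 is highest at D2 and D4.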

How the data were processed

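The authors sequenced native RNA of 12 libraries (3 per day) on MinION flow cells, ran Guppy for base calling and Minimap2 (version 2.20 in the submitters' processing notes) for alignment to GENCODE transcripts on mm10, and took tail lengths from Nanopolish and barcodes from Deeplexicon. Their deposited table has 1 line per alignment, with tail length in nucleotides, the authors' mapping quality (a score) and the authors' barcode confidence (a fraction). A second deposited table holds the authors' log2 fold changes and p-values and was not used.

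Of 6306434 lines, 4.59% had no barcode, 67 were malformed and 4673531 had the tag PASS. Reads on nuclear protein-coding and other mRNA-class genes, without pseudogenes, were tallied per gene and library. TMM factors (30% and 5% trimmed) were computed directly, and limma-voom (limma 3.58.1, R 4.3.3, pseudocount 0.5 reads) was fitted to all 12 libraries on genes with at least 30 reads, with Benjamini-Hochberg adjustment called at 0.05. No other count model was run on these tallies. Per-gene tail medians and shares were fitted with limma, weighted by reads, on genes with at least 10 reads in each library. For single values the test was an exact permutation of the libraries, two-sided. Each fit was tested on simulated data. Alternatives were other scalings, filters, weights, tail limits, a mapping quality of at least 10, a replicate block and each library left out. The other steps ran in Python 3.11.15 (scipy 1.17.1, pandas 2.3.3).

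Values are given for members called at D6 with at least 20 reads per library on average and no overlap between D0 and D6, for paralog families, for the TOP members and for members called in a tail measure. The members and lists were chosen with earlier results of these data known. Intervals and errors cover the spread between the replicates of 1 line.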

Additional observations from a re-analysis of the deposited data

How the results depend on the processing

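Of the 26 named members called in abundance at D6, 14 stayed called under all 9 alternatives and with each of the 12 libraries left out: Eif1a, Eif1b, Eif2s1, Eif2s2, Eif3a, Eif3b, Eif3d, Eif3i, Eif4a1, Eif4a3, Eif4b, Eif4g2, Eif5a and Eif6. For tails, 3 of 8 median calls (Eif3e, Eif3k and Eif4g2) and 1 of 7 calls on the share of 30 to 90 nt (Eif3k) did so. With plain library totals 14 members were lower at D6 and 5 higher, with a median of −0.15 on the log2 scale. Among the members put through the alternatives, values then turned above 0 for Eif1 (0.03), Eif3f (0.14), Eif3h (0.21) and Eif4e (0.19). Values near 0 also changed sign for Eif3h with median-of-ratios scaling (0.00877), a mean of at least 10 reads (0.055) and only the 2 days compared (0.00847), and for Eif4e with a mean of at least 10 reads (0.033). The median log2 fold change was −0.32 with that filter and −0.35 at a mapping quality of at least 10. Members called at D2 numbered 3 with median-of-ratios scaling and 2 at that mapping quality. Changed median tails numbered 3 with the same weights for all libraries and 5 at that mapping quality. Changed shares of 30 to 90 nt numbered 2 with the same weights, 3 with at least 5 reads and 4 with limits of 35 and 85 nt. Changed shares under 30 nt numbered 0 with the same weights, 0 with at least 5 reads, 2 with at least 20 reads and 0 with a limit of 25 nt. With each gene counted once, members less ribosomal protein genes gave 16.0 nt, and TOP less other members −4.74 nt and 3.44 points of 30 to 90 nt tails. With 1 library left out, the members lower at D6 ranged from 17 to 24, those higher from 2 to 4, those called at D2 from 3 to 6 and those called at D4 from 9 to 15. In the same runs the median log2 fold change ranged from −0.45 to −0.34, changed median tails from 3 to 8, changed shares of 30 to 90 nt from 2 to 7 and those under 30 nt from 0 to 1. The count at D2 was 3 without D0 replicate 1, D2 replicate 3, D4 replicate 1, D4 replicate 2 or D6 replicate 3. Leaving out D6 replicate 2 gave 3 changed medians and 2 changed shares. Eif3h ranged from −0.047 to 0.050 and Eif4e from −0.14 to 0.11.

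The replicate numbers were not taken to pair the libraries, because not every correlation was over 0.1: deviations of same-numbered libraries correlated between −0.135 and 0.168 (median 0.0235 over 18 pairs). Still, 9 of 12 libraries correlated best with their own number, a hint of pairing from the data and not from the design. With the replicate block, Eif2b1, Eif3c, Eif4a2 and Eif4e2 were not called and Eif4e3 was (limma adjusted p = 0.0293), Eif3a lost its median-tail call (limma adjusted p = 0.082), and 3 members had a changed share of 30 to 90 nt tails.

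Depth limits the members with few reads, such as Eif4e3, Eif5a2 and Eif2s3y, and D2, the shallowest day.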
